A study of Rattus norvegicus with 30 samples.

Results

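The antioxidant genes controlled by Nrf2 and the metallothionein gene Mt1 were followed in rat hepatocytes given sodium valproate. The group holds 10 genes. They are the transcription factor gene Nfe2l2, the glutathione supply genes Gclc, Gclm and Slc7a11, the redox recycling genes Gsr, Txnrd1 and Srxn1, the quinone and heme enzymes Nqo1 and Hmox1, and Mt1. Members were taken by gene symbol, as all probesets of the array annotated with 1 of these symbols, which gave 14 of 31042 probesets. In all, the array measured 14217 named genes. The values of the study did not enter that choice by symbol, but the genes were proposed with earlier results of these data known.

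The cultures were hepatocytes isolated from male Sprague Dawley rats, bought frozen from 1 supplier, plated on collagen and covered with Matrigel. On day 3 they received water as the vehicle, 0.5 mM sodium valproate or 10 mM sodium valproate, and RNA was harvested after 24 h or 48 h. Each of the 6 combinations had 5 wells, so 30 arrays were measured. Replicates are numbered here in the order of the arrays, since the labels number only the arrays. The sources used here give neither the age and number of the donor animals nor the layout of plates. The p-values therefore describe variation among wells only. Valproate is an antiepileptic branched fatty acid that also inhibits histone deacetylases.

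Nrf2, the protein made from Nfe2l2, is held in the cytoplasm by Keap1, which hands it to an E3 ligase for breakdown. Electrophiles and oxidants modify Keap1, and Nrf2 then accumulates, pairs with small Maf proteins and binds antioxidant response elements before genes of glutathione synthesis, thioredoxin reduction, NADPH supply and detoxification. Bach1 competes for the same elements and is known above all as a repressor of Hmox1. Metallothioneins bind zinc and copper and are switched on by the zinc sensor MTF1 through metal response elements, and the liver is one of their main sites of expression.

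Signals are linear array values in arbitrary units, scaled by the authors to a common array mean. Changes are differences between group means of log2(signal + 16), given ± the standard error from limma with 5 wells in each group. A positive change means that the first group named is the higher one, and p-values are adjusted by Benjamini-Hochberg over all 21729 tested probesets. A gene was called at an adjusted p under 0.05. Each gene is represented by its brightest probeset, and other probesets are given separately. Of the 14 probesets, 13 passed the filter on low signal, and all 10 genes were tested. The probeset 1381067_at of Srxn1, with signals between 14 and 339, lay below it. Precision is limited by the number of arrays.

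Hepatocyte markers were checked against the labelled cell type. Of 8 listed markers 7 were measured, all above the filter. Their summed signals after 24 h were 365172.5 to 455727.5 in water, 408004 to 494734.5 at 0.5 mM and 302671 to 374177 at 10 mM, with medians of 406700.3, 423959 and 348671. After 48 h they were 339260.3 to 390294 in water, 396438 to 435798 at 0.5 mM, which lay above water with no overlap, and 347381 to 384324 at 10 mM. Markers of other liver cells were summed in the same way and not tested. Macrophage and Kupffer cell sums (5 of 7 measured genes above the filter) after 24 h were 3055 to 4013 in water, 3332 to 3976 at 0.5 mM and 1952 to 2507 at 10 mM. After 48 h they were 2488 to 2968, 1973 to 2491 and 1609 to 2304. Stellate cell and fibroblast sums (5 of 8 above the filter) after 24 h were 3599 to 4066, 3992 to 4976 and 2577 to 2999.6 in the same order, and after 48 h they were 3736 to 4352, 3312 to 4926 and 2617 to 3124. In both of these lists the 10 mM wells lay below the water wells at both times with no overlap. Endothelial sums (4 of 6 above the filter) after 24 h were 1248 to 2141, 1653 to 2081 and 962 to 1395, and after 48 h they were 1139 to 1620.3, 1460.0 to 1791 and 986 to 1581, so each dose overlapped water. Biliary sums (2 of 4 above the filter, and mostly Epcam, while Krt19 and Krt7 lay below it) after 24 h were 7094 to 8674, 9000.4 to 9464 and 6283 to 7179, with 0.5 mM above water and no overlap. After 48 h they were 10529 to 12213, 9308.5 to 10959 and 4948 to 6516, with 10 mM below water and no overlap. No marker was listed at 0. The part of other cells in the results below was not tested, and in bulk RNA fewer cells of a type and less RNA per cell cannot be told apart.

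RNA quality was uneven in 3 arrays, as read from the actin control probesets near both ends of the transcript. Their 3'/5' ratio on the log2 scale was 2.76 in water replicate 3 at 24 h, 2.77 in 0.5 mM replicate 3 at 48 h and 2.23 in 0.5 mM replicate 4 at 48 h. The other 27 arrays lay between 1.06 and 1.74. Counts of called members were recomputed without these 3 arrays, which left the counts of all 4 comparisons with water as they were and took the interaction of 0.5 mM with time from 7 to 3 genes.

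Upstream sequence was available for 8 of the 10 genes, as the 250 bases before each start site in RefSeq (build GRCr8). The antioxidant response core was searched as TGACNNNGC and the metal response core as TGCACNC or TGCGCNC, on both strands. Over 33469 rat windows of the same length, 10.078% held an antioxidant core and 20.565% held a metal core. Among 9 windows of the members (Txnrd1 has 2 starts), 3 held an antioxidant core. These are the windows of Gclm, Txnrd1 at its downstream start and Mt1. They are printed with that of Mt2A, another metallothionein gene. These windows were chosen because at 10 mM the dim Mt1 probeset fell and Mt2A rose at 24 h, and Gclm fell and Txnrd1 rose at 48 h. A far brighter probeset shared by Mt1, Mt1f and Ttr had no lower mean at 10 mM than in water at 24 h. Capitals mark the matches. Capital runs of 9 bases are antioxidant cores and runs of 7 bases are metal cores.
Mt1 (chr19:10832976-10833225, minus strand): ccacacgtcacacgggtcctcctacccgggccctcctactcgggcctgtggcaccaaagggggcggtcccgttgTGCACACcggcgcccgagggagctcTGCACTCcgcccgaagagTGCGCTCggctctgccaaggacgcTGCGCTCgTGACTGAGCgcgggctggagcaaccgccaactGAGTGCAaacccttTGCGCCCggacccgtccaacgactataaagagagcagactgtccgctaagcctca
Mt2A (chr19:10838709-10838958, minus strand): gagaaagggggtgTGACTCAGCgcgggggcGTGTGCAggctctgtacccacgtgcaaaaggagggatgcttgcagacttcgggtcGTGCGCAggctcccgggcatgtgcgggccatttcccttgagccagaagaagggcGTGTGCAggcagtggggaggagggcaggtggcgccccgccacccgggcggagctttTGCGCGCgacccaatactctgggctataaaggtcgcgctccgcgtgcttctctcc
Gclm (chr2:213031885-213032134, plus strand): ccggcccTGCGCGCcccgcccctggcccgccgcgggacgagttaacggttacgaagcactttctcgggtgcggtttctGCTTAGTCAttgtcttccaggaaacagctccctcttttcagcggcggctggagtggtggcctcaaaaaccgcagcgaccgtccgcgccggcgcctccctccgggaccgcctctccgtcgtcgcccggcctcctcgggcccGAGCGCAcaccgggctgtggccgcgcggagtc
Txnrd1 (chr7:22755905-22756154, minus strand): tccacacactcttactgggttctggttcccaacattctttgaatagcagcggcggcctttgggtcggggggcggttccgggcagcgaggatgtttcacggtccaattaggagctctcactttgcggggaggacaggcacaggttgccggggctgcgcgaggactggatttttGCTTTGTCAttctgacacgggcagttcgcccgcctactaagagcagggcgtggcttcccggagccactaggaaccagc
The Mt1 window held 6 metal cores and 1 antioxidant core, the latter at -101 to -93 from the start. The Mt2A window held 4 metal cores and 1 antioxidant core, at -237 to -229. In Gclm an antioxidant core lay at -172 to -164 on the opposite strand, with 2 metal cores, and in Txnrd1 it lay at -78 to -70 on the opposite strand. The windows of Nfe2l2, Gclc, Slc7a11, Srxn1 and Nqo1 held neither core, and sequence outside the 250 bases was not searched. A match is a description of the letters and says nothing about binding in these cells.

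At 24 h, 0.5 mM valproate raised Gclm and Hmox1 and lowered Nfe2l2, Slc7a11, Txnrd1, Srxn1 and Nqo1, while 3 genes were not called. Over all 11604 genes tested, 12.7% were called higher and 16.1% lower. At 48 h the same dose raised Gclc and Hmox1 and lowered Nfe2l2 and Nqo1, and 6 genes were not called, against 11.9% higher and 14.1% lower over all genes. The median change of the 10 genes was -0.07 at 24 h and -0.03 at 48 h, beside 0.02 and -0.01 over all genes tested.

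At 10 mM and 24 h, 8 of the 10 genes were lower than in water, 1 (Srxn1) was higher and Txnrd1 was not called. Over all genes, 25% were called lower and 31.1% higher. At 48 h, 4 genes (Gclm, Slc7a11, Gsr and Hmox1) were lower, 3 (Nfe2l2, Txnrd1 and Srxn1) were higher and 3 were not called, against 22.3% lower and 27.6% higher over all genes. The median change of the 10 genes was -0.50 at 24 h and -0.22 at 48 h, beside 0.07 and 0.03 over all genes. Both directions thus occurred among the members at 10 mM. With arrays centred on ribosomal protein genes, which shifted the median of all genes by 0.21 at 10 mM and 48 h, the split at that time became 5 higher and 3 lower. With quantile normalization it was 4 higher and 4 lower. The same centring shifted the median by -0.12 at 0.5 mM and 24 h, where it gave 1 higher and 5 lower, and by 0.16 at 0.5 mM and 48 h, where it gave 3 higher and 1 lower. Both doses were compared with the same water wells at each time.

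**Figure D1:**
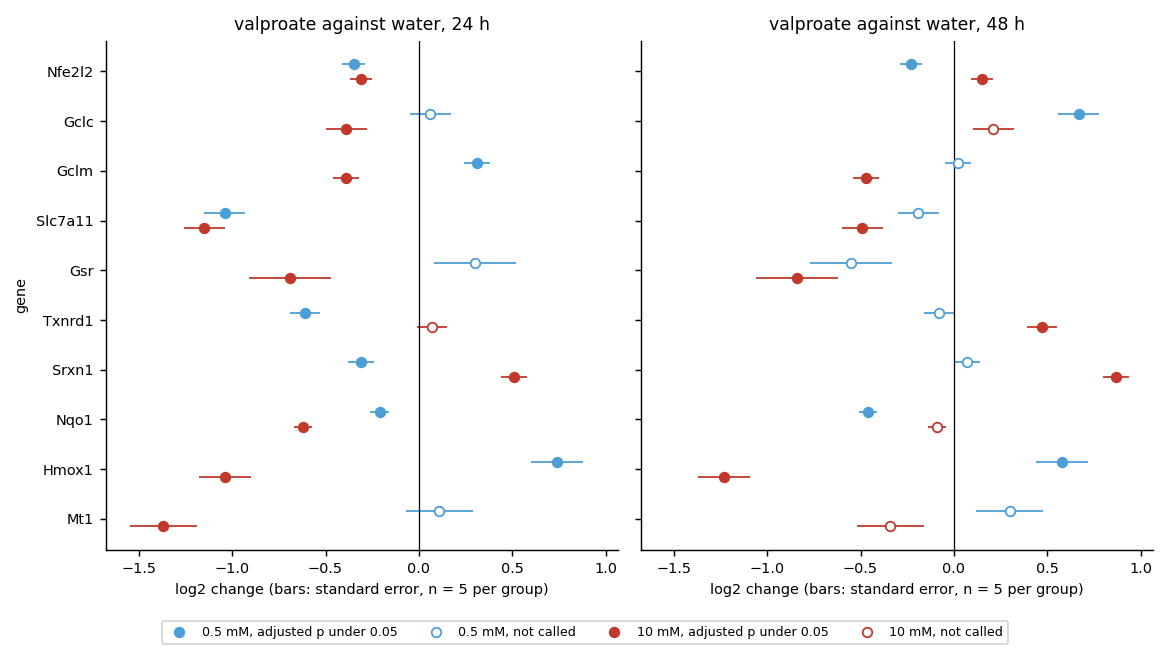
Log2 change of each gene against water (x axis) at 24 h on the left and 48 h on the right, with blue points for 0.5 mM and red points for 10 mM, bars for the standard error (n = 5 per group) and filled points for an adjusted p under 0.05. Hmox1 lies right of 0 at 0.5 mM and left of 0 at 10 mM at both times, Srxn1 lies right of 0 at 10 mM, and Mt1 shows the lowest value of the 24 h panel at -1.37.

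Nfe2l2 encodes Nrf2 itself. Its signals at 24 h were 10021, 10515, 10588, 10979.7 and 11013 in water, 7874, 8199.7, 8233, 8252 and 9080.4 at 0.5 mM and 8179, 8221, 8613, 8834 and 9088 at 10 mM. Every treated well lay below every water well, and the changes were -0.35 ± 0.06 (adjusted p = 2.45e-05) and -0.31 ± 0.06 (adjusted p = 2.81e-05). At 48 h the signals were 9413, 10462, 10638, 10872 and 11168 in water, 8033, 8478, 9078, 9438 and 9739.8 at 0.5 mM and 11312, 11458, 11584, 11849 and 12115 at 10 mM. The lower dose was still below water, with a change of -0.23 ± 0.06 (adjusted p = 0.00278), with values that overlapped. The higher dose now lay above it by 0.15 ± 0.06 (adjusted p = 0.0296), with no overlap. That small rise missed the threshold without water replicate 1 (0.11, adjusted p = 0.119), 10 mM replicate 1 (0.14, adjusted p = 0.0713) or 10 mM replicate 3 (0.15, adjusted p = 0.0576), whereas it was 0.36 (adjusted p = 1.51e-05) after centring on ribosomal protein genes and 0.26 (adjusted p = 5.49e-05) with quantile normalization. The 0.5 mM value at 48 h became -0.07 (adjusted p = 0.458) after centring on ribosomal protein genes. The effect of 10 mM differed between the times by 0.46 ± 0.08 (adjusted p = 0.000173).

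**Figure D2:**
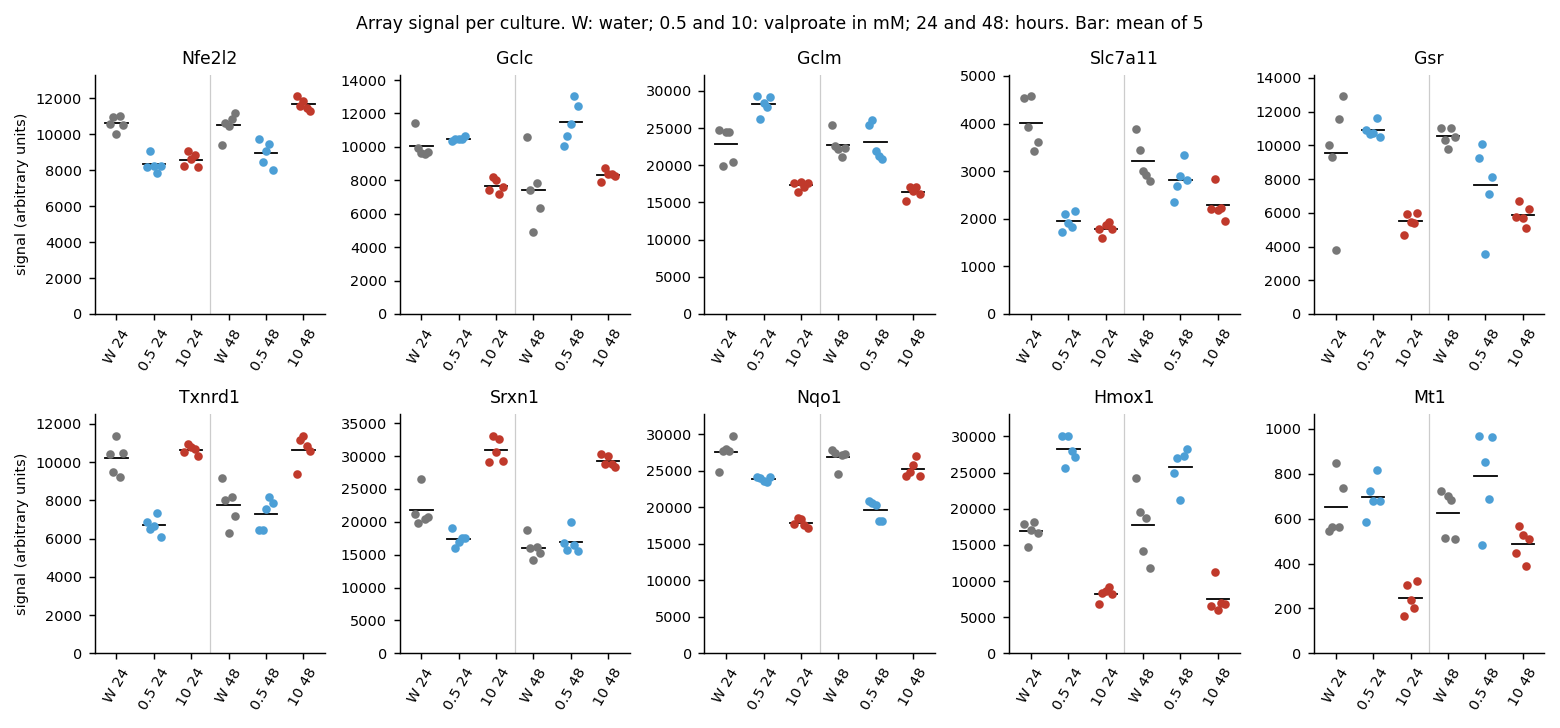
Signal of each gene's brightest probeset in the 30 wells (y axis, arbitrary units, starting at 0), with 1 panel per gene, 1 point per well and a bar at the mean of 5 wells for water (W, grey), 0.5 mM (blue) and 10 mM (red) at 24 h and 48 h. Hmox1 wells sit between 21251 and 30114 at 0.5 mM and between 6039 and 11206 at 10 mM, and the single lowest Gsr wells of water at 24 h and of 0.5 mM at 48 h are at 3824 and 3546.

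Gclc and Gclm encode the catalytic and the modifier subunit of glutamate cysteine ligase, which makes the rate-limiting step of glutathione synthesis. Gclm at 24 h read 19878, 20469, 24445, 24485 and 24766 in water, 26208, 27802, 28369.8, 29235 and 29273 at 0.5 mM and 16358, 17136, 17675, 17675 and 17753 at 10 mM. The 3 groups did not overlap. The gene rose by 0.31 ± 0.07 at 0.5 mM (adjusted p = 0.0011) and fell at 10 mM, with a change of -0.39 ± 0.07 (adjusted p = 1.22e-05). After centring on ribosomal protein genes the rise at 0.5 mM was 0.19 (adjusted p = 0.0702). At 48 h the water wells read 21167, 22217, 22313, 22584 and 25353, and the 10 mM wells, at 15172, 16131, 16488, 17020.2 and 17144, all lay below them, with a change of -0.47 ± 0.07 (adjusted p = 8.73e-07). At 0.5 mM the 48 h change was 0.02 ± 0.07, with a 95% interval from -0.12 to 0.16.

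Gclc was measured by 2 probesets, of which only the brighter was called. In the brighter one (1372523_at) the water wells at 48 h spread widely, at 4928, 6348, 7436, 7863 and 10575, and the 0.5 mM wells read 10045, 10661, 11344, 12459 and 13029. That was a rise of 0.67 ± 0.11 (adjusted p = 3.41e-05), although the highest water well overlapped the treated ones. At 24 h the same probeset read 9603, 9610.5, 9722, 9911 and 11429 in water and 7178, 7405, 7600.0, 8038 and 8204 at 10 mM, a change of -0.39 ± 0.11 (adjusted p = 0.00405) with no overlap. At 0.5 mM and 24 h the change was 0.06 ± 0.11, with a 95% interval from -0.16 to 0.29. At 10 mM and 48 h it was 0.21 ± 0.11 (adjusted p = 0.134), and 0.35 (adjusted p = 0.00261) without water replicate 1. It was also called after centring on ribosomal protein genes (0.42, adjusted p = 0.00315) and with quantile normalization (0.28, adjusted p = 0.0377). The second probeset (1370688_at) was called in no comparison. Its changes at 0.5 mM were 0.50 ± 0.23 at 24 h and -0.06 ± 0.23 at 48 h, and at 10 mM they were 0.12 ± 0.23 and -0.02 ± 0.23. With the mean of both probesets the 48 h change at 0.5 mM was 0.31 (adjusted p = 0.101) and the 24 h change at 10 mM was -0.13 (adjusted p = 0.426). The calls for Gclc rest on 1 of its 2 probesets. The lowest wells of the second probeset, 1817 in water replicate 3 at 24 h and 1852 in 0.5 mM replicate 3 at 48 h, are the 2 arrays with the highest actin ratio. With that ratio as a covariate, its change at 0.5 mM was 0.07 (adjusted p = 0.76) at 24 h and 0.49 (adjusted p = 0.0106) at 48 h, and without the 3 arrays of high ratio it was 0.24 (adjusted p = 0.169) and 0.34 (adjusted p = 0.101).

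Slc7a11 encodes the transport subunit of the cystine and glutamate exchanger, which brings in cystine for glutathione. Its signals at 24 h were 3425, 3622, 3932, 4527 and 4571 in water, 1712, 1833, 1912, 2106 and 2157 at 0.5 mM and 1599, 1775, 1786, 1868 and 1929 at 10 mM. All treated wells were below all water wells, and the changes were -1.04 ± 0.11 at 0.5 mM (adjusted p = 1.38e-08) and -1.15 ± 0.11 at 10 mM (adjusted p = 8.54e-11). The difference between the doses was -0.11 ± 0.11, with a 95% interval from -0.33 to 0.10. It was -0.28 (adjusted p = 0.0245) with quantile normalization and 0.10 (adjusted p = 0.521) after centring on ribosomal protein genes. By 48 h they read 2788, 2928, 3013, 3434 and 3876 in water, 2347, 2686, 2808, 2891 and 3344 at 0.5 mM and 1958, 2191, 2197, 2233 and 2832 at 10 mM. The 0.5 mM change was -0.19 ± 0.11 (adjusted p = 0.229). The 10 mM change was -0.49 ± 0.11 (adjusted p = 0.000311), with 1 treated well inside the water range, and it was -0.28 (adjusted p = 0.0541) after centring on ribosomal protein genes. The effects at 48 h differed from those at 24 h by 0.85 ± 0.15 at 0.5 mM (adjusted p = 0.000404) and by 0.66 ± 0.15 at 10 mM (adjusted p = 0.00312).

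Gsr encodes glutathione reductase, which returns oxidised glutathione to its reduced form with NADPH. At 24 h it read 3824, 9281, 10009, 11589 and 12907 in water and 4660.5, 5408, 5459, 5940.2 and 5961 at 10 mM. Of the 5 water wells 4 lay above all treated wells, and replicate 3 was the lowest of the 10. The change was -0.69 ± 0.22 (adjusted p = 0.00933), and it was -0.99 (adjusted p = 5.67e-11) without the 3 arrays of high actin ratio, which include that replicate. At 48 h the wells read 9789.8, 10344, 10521, 11025 and 11052 in water and 5116, 5666, 5754, 6196 and 6691 at 10 mM, with no overlap and a change of -0.84 ± 0.22 (adjusted p = 0.00203). At 0.5 mM the signals were 10507, 10692, 10719.9, 10898 and 11648 at 24 h and 3546, 7137, 8122, 9239 and 10056 at 48 h. The changes against water were 0.30 ± 0.22 (adjusted p = 0.32) and -0.55 ± 0.22 (adjusted p = 0.0685). Without the 3 arrays these were 0.00 (adjusted p = 0.982) and -0.21 (adjusted p = 0.134). With the actin ratio as a covariate they were -0.14 (adjusted p = 0.335) and 0.01 (adjusted p = 0.962). The 48 h value was called with array weights (-0.52, adjusted p = 0.0158) and with a block for each set of 6 consecutive arrays (-0.55, adjusted p = 0.0366). Leaving out single arrays also called it without 0.5 mM replicate 1 (-0.64, adjusted p = 0.0386), 0.5 mM replicate 2 (-0.67, adjusted p = 0.0282) or water replicate 3 of 24 h (-0.55, adjusted p = 0.00925). The 2 lowest Gsr wells outside the 10 mM groups, 3824 and 3546, were the 2 arrays with the highest actin ratio.

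**Figure D3:**
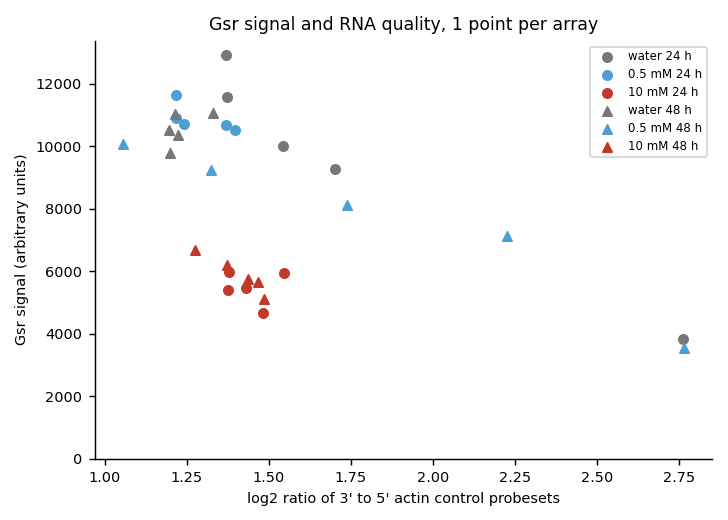
Gsr signal (y axis, arbitrary units) against the log2 ratio of 3' to 5' actin control probesets (x axis), 1 point per array, circles for 24 h and triangles for 48 h. The 10 mM arrays lie between 4660.5 and 6691 at ratios from 1.28 to 1.55, and the 2 lowest of the other arrays lie at ratios of 2.76 and 2.77.

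Txnrd1 encodes the cytosolic thioredoxin reductase. Its brighter probeset (1398791_at) read 9235, 9479, 10413, 10481 and 11386 in water and 6066, 6508, 6636, 6892 and 7326 at 0.5 mM at 24 h. All treated wells were lower, with a change of -0.61 ± 0.08 (adjusted p = 2.14e-06). At 10 mM it read 10328, 10514, 10667, 10801 and 10952, inside the range of the water wells, and the change was 0.07 ± 0.08, with a 95% interval from -0.10 to 0.24. At 48 h water wells read 6283, 7174, 8011, 8167 and 9166 and 10 mM wells read 9364, 10571, 10855, 11155 and 11347, all higher, by 0.47 ± 0.08 (adjusted p = 2.32e-05). At 0.5 mM the 48 h change was -0.08 ± 0.08 (adjusted p = 0.53). The second probeset (1386958_at) was called in all 4 comparisons, lower at 0.5 mM (-0.46 ± 0.11 at 24 h and -0.67 ± 0.11 at 48 h) and higher at 10 mM (0.44 ± 0.11 and 0.44 ± 0.11). Wherever either probeset was called, its mean was below water at 0.5 mM and above water at 10 mM. In the second probeset the wells overlapped those of water at 0.5 mM and 24 h and at 10 mM and 48 h.

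Srxn1 encodes sulfiredoxin, which repairs overoxidised peroxiredoxins. It was the only member whose representative probeset was called higher at 10 mM at both times, although the second Txnrd1 probeset was too. At 24 h the Srxn1 wells read 19862, 20443, 20742, 21189.6 and 26493 in water, 16036, 16872, 17519.8, 17584 and 19078 at 0.5 mM and 29095, 29311, 30602, 32534 and 33105 at 10 mM. The 3 groups did not overlap. The change was -0.31 ± 0.07 at 0.5 mM (adjusted p = 0.00238) and 0.51 ± 0.07 at 10 mM (adjusted p = 6.6e-07). At 48 h the wells read 14237, 15277, 16076, 16129 and 18677 in water and 28386, 28794, 28837, 30062 and 30310.4 at 10 mM, a rise of 0.87 ± 0.07 (adjusted p = 2.81e-11), or 1.83-fold. At 0.5 mM the 48 h change was 0.07 ± 0.07 (adjusted p = 0.557). The second probeset (1384331_at) rose at 10 mM by 1.06 ± 0.15 at 24 h (adjusted p = 3.81e-07) and 1.05 ± 0.15 at 48 h (adjusted p = 6.32e-07). At 0.5 mM it read -0.12 ± 0.15 at 24 h (adjusted p = 0.573) and -0.73 ± 0.15 at 48 h (adjusted p = 0.000494). The 48 h value was -0.47 (adjusted p = 0.00404) without the 3 arrays of high actin ratio. The rise at 10 mM was thus present in both probesets, while the probesets differed in the time at which 0.5 mM lowered the signal.

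**Figure D4:**
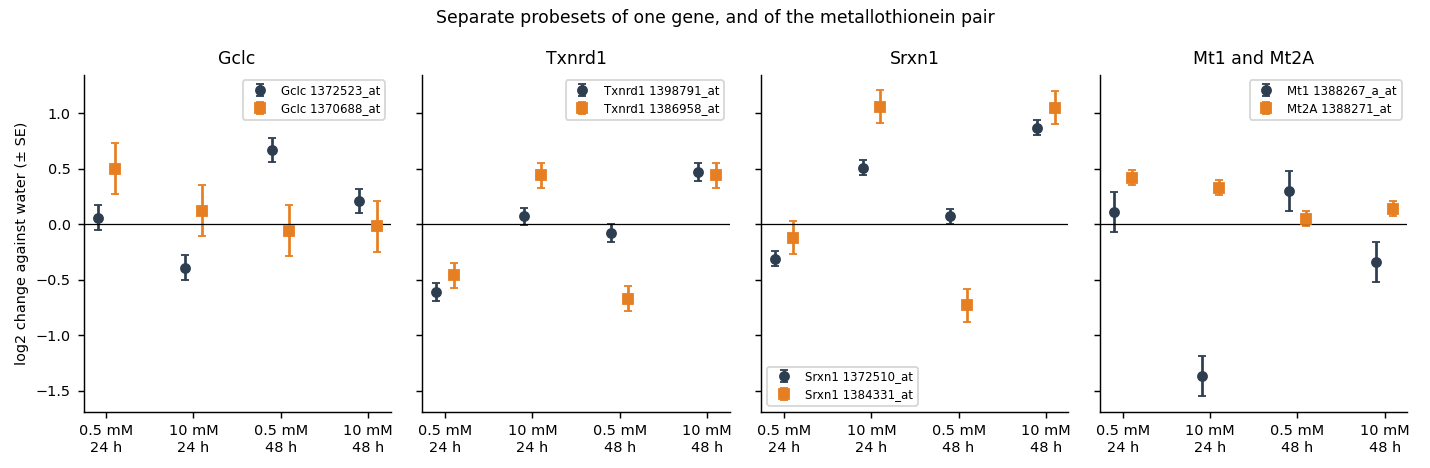
Log2 change against water (y axis, bars for the standard error, n = 5 per group) for the separate probesets of Gclc, Txnrd1 and Srxn1 and for the metallothioneins Mt1 and Mt2A, by dose and time on the x axis. Both Srxn1 probesets lie above 0 at 10 mM, the Gclc probesets part at 0.5 mM and 48 h (0.67 and -0.06), and Mt1 and Mt2A part at 10 mM and 24 h (-1.37 and 0.33).

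Nqo1 encodes a quinone reductase that is a standard reporter of Nrf2 activity. At 24 h it read 24782, 27656, 27753, 27915 and 29800.0 in water, 23514, 23565, 24009.8, 24162 and 24176 at 0.5 mM and 17169, 17602, 17672, 18355 and 18518 at 10 mM. The groups did not overlap and fell with dose. The changes were -0.21 ± 0.05 (adjusted p = 0.00413) and -0.62 ± 0.05 (adjusted p = 8.2e-12). By 48 h they read 24484, 27208, 27311, 27437 and 27882 in water, 18054, 18074, 20253, 20590.3 and 20791 at 0.5 mM and 24270.1, 24283, 24884, 25793 and 27022 at 10 mM. The lower dose now gave the lower signal, with a change of -0.46 ± 0.05 (adjusted p = 7.52e-08). The 10 mM wells overlapped the water wells, with a change of -0.09 ± 0.05 (adjusted p = 0.179) and a 95% interval from -0.19 to 0.02, and the value was 0.12 (adjusted p = 0.0376) after centring on ribosomal protein genes. The 10 mM effect differed between the times by 0.54 ± 0.07 (adjusted p = 7.05e-06).

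Hmox1 encodes heme oxygenase-1, which breaks heme down to biliverdin, iron and carbon monoxide. At 24 h the wells read 14712, 16670.3, 17048, 17820.1 and 18158 in water, 25655, 27129.7, 28027, 30106 and 30114 at 0.5 mM and 6870.2, 8146, 8287, 8665 and 9221 at 10 mM. The 3 groups were fully apart, with the lower dose above water and the higher dose below it. The rise at 0.5 mM was 0.74 ± 0.14 (adjusted p = 0.000253), or 1.67-fold. The change at 10 mM was -1.04 ± 0.14 (adjusted p = 2.47e-07), which is 2.05-fold lower. After 48 h the wells read 11818, 14212, 18692, 19596 and 24222 in water, 21251, 24952, 27027, 27301 and 28325 at 0.5 mM and 6039, 6475, 6863, 6972 and 11206 at 10 mM. Here 1 water well lay inside the 0.5 mM range, and all 10 mM wells were below all others. The changes were 0.58 ± 0.14 (adjusted p = 0.00308) and -1.23 ± 0.14 (adjusted p = 1.5e-08). Between the doses Hmox1 was 3.43-fold lower at 10 mM at 24 h (-1.78 ± 0.14, adjusted p = 3.23e-12) and 3.5-fold lower at 48 h (-1.81 ± 0.14, adjusted p = 2.91e-12). Kupffer cells also express Hmox1, and the summed macrophage and Kupffer markers at 24 h were 3055 to 4013 in water, 3332 to 3976 at 0.5 mM and 1952 to 2507 at 10 mM. The 48 h sums were 2488 to 2968 in water, 1973 to 2491 at 0.5 mM, where Hmox1 was higher than in water, and 1609 to 2304 at 10 mM. Their part in the Hmox1 result was not tested.

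Mt1 was read by 1 probeset (1388267_a_at), since another annotated with Mt1 also carries the symbols of Mt1f and of the abundant plasma protein gene Ttr and was left out. The probeset used read from 167 to 970.0 over all wells, and the one left out read from 63794 to 89429. At 24 h Mt1 read 546, 564, 565, 738 and 847 in water, 586, 678, 679, 723 and 819 at 0.5 mM and 167, 199.6, 235, 304 and 321 at 10 mM. All 10 mM wells lay below all other wells of that time, and the change of -1.37 ± 0.18 (adjusted p = 1.85e-07), or 2.58-fold lower, was the largest in size of the members at that dose and time. The 48 h wells read 511, 514, 681, 699 and 721 in water, 484, 688, 851, 964 and 970.0 at 0.5 mM and 390.3, 446, 509.6, 528 and 569 at 10 mM. The 10 mM change was -0.34 ± 0.18 (adjusted p = 0.144), with overlapping values. At 0.5 mM the changes were 0.11 ± 0.18 at 24 h and 0.30 ± 0.18 at 48 h, with 95% intervals from -0.27 to 0.49 and from -0.07 to 0.68. From 24 h to 48 h Mt1 rose within the 10 mM wells by 0.97 ± 0.18 (adjusted p = 0.000277), and the 10 mM effect differed between the times by 1.03 ± 0.26 (adjusted p = 0.00852).

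Mt2A, another metallothionein gene, was higher in treated wells at 24 h. Its 24 h wells read 38457, 39265, 43694, 44069.6 and 44134 in water, 53047, 53814, 55317, 56489 and 61477 at 0.5 mM and 45618, 48941, 55429, 57131 and 57724 at 10 mM. Both doses lay above water with no overlap, by 0.42 ± 0.07 (adjusted p = 2.41e-05) and 0.33 ± 0.07 (adjusted p = 9.57e-05). At 48 h the changes were 0.05 ± 0.07 and 0.14 ± 0.07 and neither was called. At 24 h the probeset shared by Mt1f, Ttr and Mt1 read from 64866 to 72180.3 in water and from 64329 to 80100.1 at 10 mM, which overlapped. At 0.5 mM it read from 79128 to 89429, above water with no overlap. At 24 h neither this probeset nor that of Mt2A had a lower mean at 10 mM than in water. The far dimmer Mt1 probeset did. Metallothionein transcripts are near copies of each other, and how far each probeset reads related transcripts was not tested.

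Between the doses at 24 h, 10 mM was above 0.5 mM for Txnrd1 and Srxn1 and below it for 6 genes (Gclc, Gclm, Gsr, Nqo1, Hmox1 and Mt1), against 32.9% higher and 26.4% lower over all genes. Centring on ribosomal protein genes shifted the median of all genes by 0.21 here and gave 3 higher and 5 lower. At 48 h 4 genes were higher (Nfe2l2, Txnrd1, Srxn1 and Nqo1) and 5 lower (Gclc, Gclm, Slc7a11, Hmox1 and Mt1), against 30% and 23.8%. Nqo1 changed its place, with 10 mM below 0.5 mM at 24 h (change -0.42 ± 0.05, adjusted p = 3.2e-08) and above it at 48 h (change 0.37 ± 0.05, adjusted p = 3.88e-07). The Slc7a11 difference at 48 h, -0.30 ± 0.11 (adjusted p = 0.019), was lost without 0.5 mM replicate 4 (-0.24, adjusted p = 0.0765), without 10 mM replicate 5 (-0.25, adjusted p = 0.0673) and without the 3 arrays of high actin ratio (-0.20, adjusted p = 0.161). For Gsr the 48 h difference was -0.29 ± 0.22 (adjusted p = 0.292), and it was -0.55 (adjusted p = 0.0183) without 0.5 mM replicate 3 and -0.63 (adjusted p = 1.62e-06) without the 3 arrays.

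The members were not constant in time without valproate. From 24 h to 48 h in water, Gclc, Txnrd1 and Srxn1 fell, with changes of -0.48 ± 0.11, -0.40 ± 0.08 and -0.43 ± 0.07, and 7 genes were not called, against 10.1% of all genes called in either direction. The adjusted p-values were 0.00566, 0.00206 and 0.000273. The second probesets gave 0.20 ± 0.23 for Gclc, -0.22 ± 0.11 for Txnrd1 and -0.10 ± 0.15 for Srxn1, none of them called. In the 0.5 mM wells Slc7a11 rose and Gclm and Nqo1 fell between the times, beside 16.8% of all genes, and with ribosomal centring 3 genes were higher and 0 lower. In the 10 mM wells Nfe2l2, Slc7a11, Nqo1 and Mt1 rose, beside 16.7%. The Slc7a11 rise of 0.34 ± 0.11 (adjusted p = 0.0285) was not called without 10 mM replicate 1 of 24 h (0.34, adjusted p = 0.0532), replicate 2 of 24 h (0.30, adjusted p = 0.0882) or replicate 2 of 48 h (0.26, adjusted p = 0.121).

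The test of the difference between the times asked whether the effect of a dose at 48 h differed from its effect at 24 h. For 10 mM, 7 genes had a more positive effect at 48 h (Nfe2l2, Gclc, Slc7a11, Txnrd1, Srxn1, Nqo1 and Mt1) and 0 a more negative one, where 12.8% of all genes were called in either direction. Mt1 differed by 1.03 ± 0.26, Slc7a11 by 0.66 ± 0.15 and Gclc by 0.59 ± 0.16. In the brightest probesets of Gclc, Txnrd1 and Srxn1 the water wells fell between the times, with changes of -0.48, -0.40 and -0.43. Their 10 mM wells changed by 0.12, 0.00 and -0.08, none called. When all probesets were averaged within a gene, the dim one of Srxn1 included, 4 interactions of 10 mM with time were called. For this interaction the second probesets gave -0.14 ± 0.33 for Gclc, 0.01 ± 0.16 for Txnrd1 and -0.01 ± 0.21 for Srxn1, none of them called. For 0.5 mM, 4 genes were called with a more positive effect at 48 h (Gclc, Slc7a11, Txnrd1 and Srxn1) and 3 with a more negative one (Gclm, Gsr and Nqo1), beside 21.7% of all genes. The second probesets gave -0.55 ± 0.33 for Gclc, -0.21 ± 0.16 for Txnrd1 and -0.60 ± 0.21 for Srxn1, of which the last was called (adjusted p = 0.042), against the direction of its first probeset. The 0.5 mM wells changed between the times by 0.13 for Gclc, 0.12 for Txnrd1 and -0.05 for Srxn1 in the brightest probesets, none called. With the mean of the probesets 1 gene had a more positive and 3 a more negative effect of 0.5 mM at 48 h. Without the 3 arrays of high actin ratio 3 genes were called, and with the actin ratio as a covariate 1. Ribosomal centring, which shifted the median of all genes by 0.28 here, gave 5 genes with a more positive and 0 with a more negative effect. Of Hmox1 neither interaction was called, at -0.16 ± 0.20 for 0.5 mM and -0.19 ± 0.20 for 10 mM, with 95% intervals from -0.57 to 0.25 and from -0.60 to 0.22.

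The wider pathway was read from 8 gene lists, which were drawn up with earlier results of these data known and are described by counts. Beside these counts, the shares over all genes at 10 mM were 31.1% higher and 25% lower at 24 h and 27.6% and 22.3% at 48 h, and at 0.5 mM they were 12.7% and 16.1%, then 11.9% and 14.1%. No list was tested as a set. Over all lists, 17 genes were called higher and 47 lower at 10 mM and 24 h, and 13 and 44 at 48 h, where ribosomal centring gave 24 and 31. The split at 0.5 mM was 24 and 17 at 24 h (13 and 25 with that centring, 17 and 22 with quantile normalization) and 18 and 12 at 48 h (33 and 7 with that centring). Among 11 tested regulators of Nrf2, 1 was higher and 4 lower at 10 mM and 24 h, and 0 higher and 4 lower at 48 h, with medians of -0.15 and -0.21. Keap1, the inhibitor of Nrf2, changed by -0.95 ± 0.11 at 24 h (adjusted p = 1.75e-08) and -0.39 ± 0.11 at 48 h (adjusted p = 0.00528) at 10 mM, and rose by 0.39 ± 0.11 at 0.5 mM and 48 h (adjusted p = 0.0127). Rbx1, a subunit of the ligase that Keap1 works with, changed by -0.65 ± 0.09 and -0.55 ± 0.09 at 10 mM, and Sqstm1, the autophagy adaptor that binds Keap1, by -0.39 ± 0.06 and -0.42 ± 0.06, all called. Bach1, the repressor of Hmox1, was called at no dose, at 0.06 ± 0.36 and -0.92 ± 0.36 for 0.5 mM and 0.47 ± 0.36 and -0.62 ± 0.36 for 10 mM. Its standard error of 0.36 was the widest of the regulators named here.

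Of 15 tested genes of glutathione synthesis and use, the counts at 10 mM were 6 higher and 7 lower after 24 h, then 4 higher and 8 lower after 48 h. At 0.5 mM 6 were higher and 4 lower, and then 3 higher and 6 lower. Gss, glutathione synthetase, fell in all 4 comparisons, with changes of -0.62 ± 0.08 and -0.53 ± 0.08 at 0.5 mM and -1.17 ± 0.08 and -0.92 ± 0.08 at 10 mM. Slc3a2, the heavy chain that pairs with Slc7a11, was lower in all 4 as well, at -0.72 ± 0.06, -0.73 ± 0.06, -0.46 ± 0.06 and -0.15 ± 0.06, although the last value was 0.02 under quantile normalization and 0.06 under ribosomal centring. Gpx2, a glutathione peroxidase, fell at 10 mM, with changes of -1.87 ± 0.11 and -1.72 ± 0.11. Oplah, which opens 5-oxoproline to glutamate, rose at 0.5 mM by 0.80 ± 0.16 and 1.05 ± 0.16 and fell at 10 mM, with changes of -0.81 ± 0.16 and -0.58 ± 0.16. Ggt1, the gamma-glutamyltransferase, changed by -1.14 ± 0.17 and -1.55 ± 0.17 at 10 mM.

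The thioredoxin and peroxiredoxin list held 12 tested genes, with 3 called higher and 6 lower for 10 mM after 24 h, and 2 and 7 after 48 h. Txnip, the inhibitor of thioredoxin, rose at 10 mM by 1.59 ± 0.11 and 1.38 ± 0.11. Txnrd2, the mitochondrial thioredoxin reductase, fell at 10 mM, with changes of -1.05 ± 0.15 and -1.04 ± 0.15. At that dose Txnrd1 was called higher at 48 h by both of its probesets, and at 24 h by its second one only. Prdx6, a peroxiredoxin, changed by -0.79 ± 0.06 and -0.97 ± 0.06, and Msra, a methionine sulfoxide reductase, by -0.91 ± 0.16 and -2.15 ± 0.16. Txn1, thioredoxin itself, changed by -0.18 ± 0.06 and -0.16 ± 0.06, and the latter was 0.03 under quantile normalization and 0.04 under ribosomal centring. Of 7 tested genes of NADPH supply, all 7 were lower at 10 mM and 24 h and 6 at 48 h, with none higher and medians of -0.57 and -0.69. Me1, the malic enzyme, changed by -1.48 ± 0.08 and -0.92 ± 0.08, and Pgls, a lactonase of the pentose phosphate pathway, by -1.55 ± 0.10 and -1.76 ± 0.10.

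**Figure D5:**
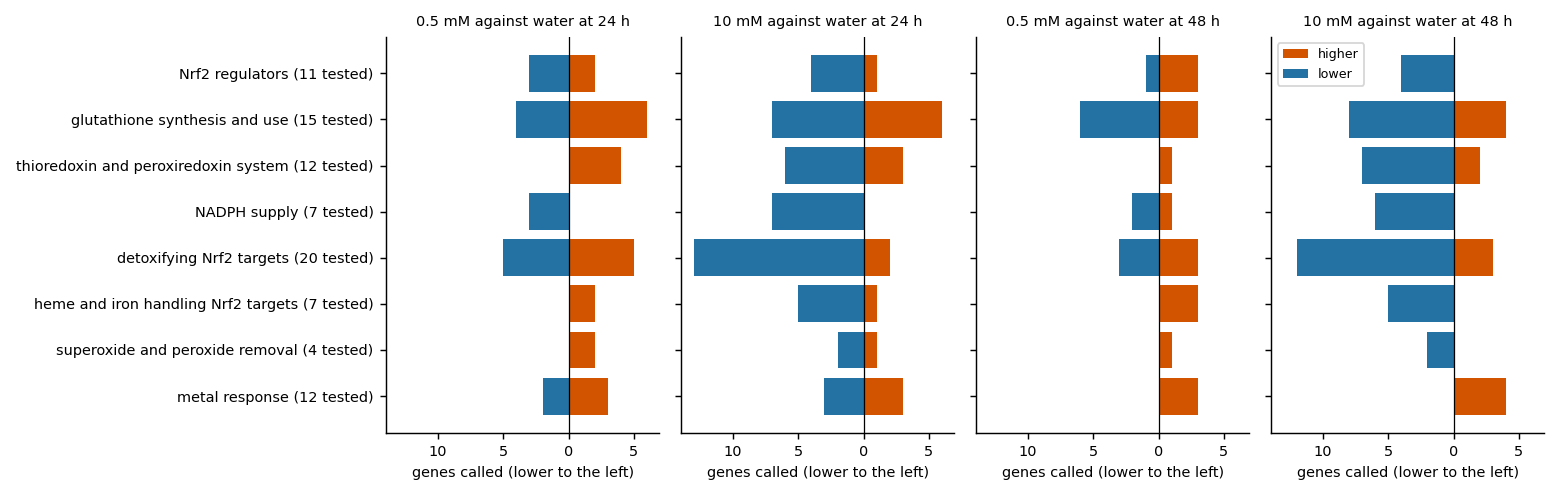
Number of genes called higher (orange, to the right) and lower (blue, to the left) than in water for 8 lists of the Nrf2 and metal response pathways, with 1 panel per dose and time and the number of tested genes beside each name. Bars are counts, so their length depends on the size of a list. At 10 mM the blue bars are longest for the detoxifying targets, the longest list, with 13 of 20 genes lower at 24 h and 12 at 48 h. For NADPH supply 7 of 7 and then 6 of 7 were lower, beside 25% and 22.3% of all genes. The metal response list has 4 of 12 genes higher and 0 lower at 48 h, beside 27.6% and 22.3% of all genes.

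Among 20 tested detoxifying targets of Nrf2, 10 mM gave 2 higher and 13 lower after 24 h and 3 higher and 12 lower after 48 h, with medians of -0.40 and -0.30. At 0.5 mM the counts were 5 higher and 5 lower, and 3 and 3. Gsta3, a glutathione transferase, fell at 10 mM, with changes of -2.21 ± 0.11 and -1.69 ± 0.11, as did Aox1, aldehyde oxidase, with -2.57 ± 0.14 and -2.03 ± 0.14. The export pumps Abcc3 (-2.84 ± 0.17 and -2.51 ± 0.17) and Abcc2 (-1.82 ± 0.13 and -1.81 ± 0.13) were also lower. Heme and iron handling, with 7 tested genes, had 1 higher and 5 lower at 24 h and 0 higher and 5 lower at 48 h at 10 mM. Blvra, the biliverdin reductase that acts after heme oxygenase, changed by -2.62 ± 0.20 and -1.09 ± 0.20. Slc40a1, the iron exporter ferroportin, rose at 0.5 mM and fell at 10 mM. Its changes were 0.46 ± 0.08 and 0.50 ± 0.08 at 0.5 mM and -0.75 ± 0.08 and -0.58 ± 0.08 at 10 mM. The 2 doses share the water wells.

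Superoxide and peroxide removal had 4 tested genes, with 1 higher and 2 lower at 10 mM and 24 h and 0 higher and 2 lower at 48 h. Sod2, the mitochondrial superoxide dismutase, rose at 24 h by 0.42 ± 0.11 at 0.5 mM and 0.54 ± 0.11 at 10 mM, and Sod1, the cytosolic one, fell at 10 mM, with changes of -0.47 ± 0.06 and -0.48 ± 0.06. The metal response list had 3 higher and 3 lower at 10 mM and 24 h and 4 higher and 0 lower at 48 h, of 12 tested. Atp7a, a copper pump, rose at 10 mM by 1.41 ± 0.16 and 1.90 ± 0.16. Slc30a10, a manganese exporter, read -1.48 ± 0.13 (adjusted p = 4.59e-11) at 10 mM and 24 h and 0.15 ± 0.13 (adjusted p = 0.386) at 48 h. Slc39a10, a zinc importer, read -0.85 ± 0.18 and -0.26 ± 0.18, of which the first was called. Mtf1, the zinc sensor that drives the metallothioneins, was called at 0.5 mM and 24 h only (-0.79 ± 0.18, adjusted p = 0.00165) and read -0.12 ± 0.18 and 0.01 ± 0.18 at 10 mM.

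The genes most like 3 members were named by Pearson's r of log2 signal over the 30 arrays, which share doses and times, as a description. For Hmox1 they were Bnip3l, Cited2 and Tspan12, each at an r of 0.971. For Mt1 they were Rcbtb2 (0.887), Ccz1 (0.884) and Mthfs (0.883). For Nqo1 they were Tbcb (0.897), Mrps18b (0.855) and Akr7a3 (0.841), the last an aldo-keto reductase of the detoxifying list. Mean log2 signals of Cited2 were 13.70 in water, 15.07 at 0.5 mM and 12.41 at 10 mM at 24 h, and 13.48, 14.64 and 11.90 at 48 h, with 0.5 mM highest and 10 mM lowest at both times, as for Hmox1.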

How the data were processed

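Array signals of 30 rat hepatocyte cultures were used, 5 for each of 6 groups. The authors deposited linear signal intensity for every probeset, which the submitters' processing notes credit to MAS5 with no settings stated. Trimmed array means lay between 1500.5 and 1500.7, so the scaling would hide a shift shared by most genes.

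Of 31099 probesets, 57 controls were left out, 20826 had 1 gene symbol, 436 several and 9780 none, and 20758 were matched to a RefSeq gene by gene identifier. Genes were named only from probesets with 1 symbol. Values were turned into log2(signal + 16), which understates changes of dim probesets, and probesets whose mean reached the 30th percentile were tested (21729). All 6 groups entered 1 fit in limma 3.58.1 (R 4.3.3) through lmFit and trended eBayes, with 24 residual degrees of freedom. Tests were two-sided with Benjamini-Hochberg adjustment over all tested probesets, and a call needed an adjusted p under 0.05. The fit was tested on simulated data. Each gene was represented by its brightest probeset (11604 tested genes), and shares of all genes called were counted over these. No pair of arrays was close enough to be a repeat (highest r 0.967 over all pairs of the 30 arrays, median 0.96 within groups). Plots used matplotlib 3.10.9 (Python 3.11.15).

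All 10 members were named with every probeset. From each pathway list up to 4 genes were picked, those with the largest change among genes called at 10 mM. Keap1, Bach1, Mt2A, Mtf1, Txn1, Slc3a2 and Gss were added whether called or not. All of these entered the alternatives as named genes, but not every one of them is described above. For Hmox1, Mt1 and Nqo1 the 3 genes with the highest r over the arrays were named. The members and lists were chosen with earlier results of these data known.

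Alternatives tried were other probesets of a gene and their mean, the actin ratio as a covariate, leaving out the 3 arrays of highest ratio or any single array, 40 ribosomal protein genes as the centre of each array, quantile normalization, pseudocounts of 1 or 64, the 50th percentile or no filter at all, array weights, a fit of the compared groups alone or without the trend, and blocks of 6 consecutively numbered arrays.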

Additional observations from a re-analysis of the deposited data

Results flagged for a closer look

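Of 60 gene and group combinations, 5 held a well whose gap to the nearest other well was a large share of the group's range, where chance alone marks about 1 in 20 groups. Gclc in water replicate 1 at 24 h was highest, at 11429 against 9603 to 9911 in the others (gap over range 0.818). Gsr in water replicate 3 at 24 h was lowest, at 3824 against 9281 to 12907 (0.729), and that array had an actin 3' to 5' log2 ratio of 2.76. Srxn1 was highest in that same array, at 26493 against 19862 to 21189.6 (0.775). Nqo1 in water replicate 3 at 48 h was lowest, at 24484 against 27208 to 27882 (0.812). Hmox1 in 10 mM replicate 2 at 48 h was highest, at 11206 against 6039 to 6972 (0.768), and still lay below all wells given water or 0.5 mM at that time.

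Of 20 tests of a difference between the times, 14 were called by limma after Benjamini-Hochberg adjustment, with n = 5 wells per group. Over all genes, 12.8% were called for 10 mM and 21.7% for 0.5 mM, in either direction. Both doses shared the water wells. The member count was 4 for 10 mM with the mean of the probesets, and 1 for 0.5 mM with the actin ratio as a covariate. For 10 mM the effect at 48 h minus that at 24 h was 1.03 for Mt1 (adjusted p = 0.00852), 0.66 for Slc7a11 (0.00312), 0.59 for Gclc (0.0108), 0.54 for Nqo1 (7.05e-06), 0.46 for Nfe2l2 (0.000173), 0.40 for Txnrd1 (0.0239) and 0.36 for Srxn1 (0.0254). The Srxn1 value was not called without water replicate 3 of 24 h (0.28, adjusted p = 0.0545), water replicate 3 of 48 h (0.31, adjusted p = 0.0587) or 10 mM replicate 1 of 24 h (0.33, adjusted p = 0.0503). The Txnrd1 value was not called without water replicate 3 of 48 h (0.33, adjusted p = 0.0582). The second probesets of these genes gave -0.01 for Srxn1, 0.01 for Txnrd1 and -0.14 for Gclc. In the brightest probesets of Srxn1, Txnrd1 and Gclc the water wells fell between the times, while the 10 mM wells showed no called change.

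For 0.5 mM the difference was 0.85 for Slc7a11 (adjusted p = 0.000404), 0.60 for Gclc (0.0076), 0.52 for Txnrd1 (0.00289), 0.39 for Srxn1 (0.011), -0.25 for Nqo1 (0.015), -0.29 for Gclm (0.0322) and -0.86 for Gsr (0.049). The second probesets gave -0.60 for Srxn1 (adjusted p = 0.042), -0.55 for Gclc and -0.21 for Txnrd1. In the brightest probesets of these genes the 0.5 mM wells showed no called change between the times, while the water wells fell. The Gsr value was not called in 26 of 30 fits that left out 1 array. It moved by over 1.5 times without water replicate 3 of 24 h (-0.56, adjusted p = 0.0975), was -0.60 (adjusted p = 0.116) without 0.5 mM replicate 3 of 48 h, and was -0.21 (adjusted p = 0.333) without the 3 arrays of high actin ratio. The Gclm value was not called in 8 of those 30 fits, over which it ranged from -0.33 to -0.24. It was also not called after centring on ribosomal protein genes (-0.01, adjusted p = 0.971), with quantile normalization (-0.20, adjusted p = 0.137), without the trend, in the compared groups alone, with the actin covariate or without the 3 arrays.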

How the results depend on the processing

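The array numbers run in 5 sets of 6 with 1 array of each group, and no label says what a set shares. Deviations from the group means of arrays in the same set had a median r of 0.00 and a highest r of 0.39 (1 of 75 pairs over 0.1). Of 30 arrays, 8 were closest to an array of their own set. The 2 arrays with the highest actin ratio were in the same set. A block for each set changed 2 member calls, Gsr at 0.5 mM and 48 h (-0.55, adjusted p = 0.0366) and for time at 0.5 mM (-0.60, adjusted p = 0.0334), and no other call of a member or named gene. Counts of called members moved by over 1.5 times in 5 cases. The time comparison in water gave 5 genes under ribosomal centring (3 in the main setting). The interaction of 0.5 mM with time (7 genes) gave 4 with the mean of the probesets, 1 with the actin ratio as a covariate and 3 without the 3 arrays of highest ratio, and the interaction of 10 mM with time (7 genes) gave 4 with the mean of the probesets. Leaving out single arrays moved no such count by over 1.5 times and turned the direction of no member value that was called. It changed the sign of 16 that were called in neither fit. The other alternatives turned 25 values of members and named pathway genes that were called before or after, given here, and 35 of members that were called in neither, 11 of them under ribosomal centring and 10 with the actin covariate. For Gclc the other probeset gave -0.06 at 0.5 mM and 48 h, 0.12 at 10 mM and 24 h, 0.03 between the doses at 48 h, 0.20 for time in water, and -0.55 and -0.14 for the interactions of 0.5 mM and 10 mM, and that probeset itself turned to 0.49 at 0.5 mM and 48 h with the actin covariate. For Srxn1 the other probeset gave -0.73 at 0.5 mM and 48 h and -0.60 and -0.01 for the interactions, and the mean of the probesets gave 0.01 at 0.5 mM and 24 h. For Txnrd1 the other probeset gave -0.43 for time at 0.5 mM and -0.21 for the interaction of 0.5 mM. With the actin covariate Gsr gave 0.15 for the interaction of 0.5 mM and, among values called in neither, -0.14 at 0.5 mM and 24 h, 0.01 at 0.5 mM and 48 h, -0.24 for time in water and 0.30 for the interaction of 10 mM. Ribosomal centring gave 0.12 for Nqo1 at 10 mM and 48 h, 0.03 for its interaction of 0.5 mM, 0.15 for Txn1 and 0.14 for Sod1 at 0.5 mM and 48 h, and 0.04 for Txn1, 0.06 for Slc3a2 and 0.16 for Cat at 10 mM and 48 h. Quantile normalization gave -0.03 for Txn1 at 0.5 mM and 24 h, and 0.03 for Txn1, 0.02 for Slc3a2 and 0.17 for Cat at 10 mM and 48 h. Quantile normalization shifted the median of all genes by -0.15 at 10 mM and 24 h. The causes were not tested. The dim probeset 1381067_at of Srxn1 was below the filter and was not run as an alternative on its own. It did enter the mean of the Srxn1 probesets, and so the value of 0.01 at 0.5 mM and 24 h.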
